A study of Mus musculus with 35 samples.

Results

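The genes examined were the 8 genes of the pentose phosphate pathway that the deposited RNA-seq tables of mouse macrophages carry under the symbols G6pdx, Pgd, Pgls, Tkt, Taldo1, Rpia, Rpe and Shpk. They were taken by symbol, without a threshold on their values, and they were 8 of 47069 gene identifiers. All 8 had a mean FPKM of at least 1 and were therefore among the 11354 genes tested. The cells were bone marrow-derived macrophages (BMDMs) of C57BL/6 mice, grown from bone marrow in medium conditioned by L929 cells, from wild-type (WT) animals and from animals labelled AMPKa1-/-, which are described as lacking the catalytic alpha 1 subunit of the energy-sensing kinase AMPK. Cells of each genotype were exposed for 24 h to vehicle (DMSO), to the synthetic glucocorticoid dexamethasone (Dex, 100 nM), to bacterial lipopolysaccharide (LPS, 100 ng/ml), to LPS+Dex at those doses, to DAMPs (damage-associated molecular patterns, 1 µg/ml, whose make-up the labels do not give) or to DAMPs+Dex. The 35 libraries fell into 12 groups of 3, except WT LPS, which held replicates 2 and 3 only. Nothing in the labels says whether replicates came from separate mice or cultures, so that p-values measure the spread between these libraries.

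The pentose phosphate pathway branches from glycolysis at glucose 6-phosphate. Its oxidative branch yields NADPH, which macrophages use for reductive synthesis, for glutathione and thioredoxin recycling, for the oxidative burst and for nitric oxide production, together with ribulose 5-phosphate. Its non-oxidative branch interconverts pentose and hexose phosphates and so links ribose supply for nucleotides to glycolysis. In the oxidative branch, G6pdx encodes the glucose-6-phosphate dehydrogenase that commits glucose 6-phosphate to the pathway, Pgls the lactonase that follows it and Pgd the 6-phosphogluconate dehydrogenase that yields the second NADPH. In the non-oxidative branch, Rpia (ribose-5-phosphate isomerase) and Rpe (ribulose-5-phosphate epimerase) sort the pentose phosphates, and transketolase (Tkt) and transaldolase (Taldo1) return carbon to glycolysis. Shpk encodes sedoheptulose kinase (CARKL), which feeds sedoheptulose into the non-oxidative branch and is known for its repression in LPS-activated macrophages.

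On the mouse GRCm38 assembly (GENCODE M21) all 8 were protein-coding genes. G6pdx lay on the minus strand of chrX:74409483-74429194, Pgls on the plus strand of chr8:71592176-71601092 and Pgd on the minus strand of chr4:149149991-149166771. Rpia lay on the minus strand of chr6:70765720-70792232, Rpe on the plus strand of chr1:66700831-66719805, Tkt on the plus strand of chr14:30548359-30574720, Taldo1 on the plus strand of chr7:141392199-141402968 and Shpk on the plus strand of chr11:73199460-73224511. Exons of G6pdx shared 418 bp with Ikbkg on the opposite strand, exons of Rpe 558 bp with Kansl1l on the opposite strand and exons of Pgls 776 bp with Fam129c on the same strand. The mean levels of these neighbours over the 35 libraries were 24.7 FPKM for Ikbkg, 3.26 for Kansl1l and 5.07 for Fam129c. Since it is not stated whether strand was used, reads in the stretches shared with Ikbkg and Kansl1l could not be assigned to one gene. Strand would not separate Pgls from Fam129c, so reads in that stretch could not be assigned either. G6pd2, an intronless copy of G6pdx, was 93.2% identical to it over 2332 bp of transcript and was listed at 0 in every library. A Taldo1-like transcript, Gm17823, was 94.7% identical over 923 bp and was not analysed here.

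The sequences upstream of the RefSeq starts (GRCm38.p6) are shown for the 3 most abundant of the 4 genes that fell with LPS and for Rpe, which rose. Each is the 250 bases before the start, 5′ to 3′ on the strand of the gene, and capitals mark a match to the core antioxidant response element, TGACNNNGC on either strand.
G6pdx, chrX:74428881-74429130, minus strand: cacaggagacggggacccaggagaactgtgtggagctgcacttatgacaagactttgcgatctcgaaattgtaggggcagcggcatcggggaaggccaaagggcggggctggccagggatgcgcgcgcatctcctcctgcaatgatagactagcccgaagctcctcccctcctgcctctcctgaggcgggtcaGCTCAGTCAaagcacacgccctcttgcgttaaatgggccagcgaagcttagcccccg
Pgd, chr4:149166706-149166955, minus strand: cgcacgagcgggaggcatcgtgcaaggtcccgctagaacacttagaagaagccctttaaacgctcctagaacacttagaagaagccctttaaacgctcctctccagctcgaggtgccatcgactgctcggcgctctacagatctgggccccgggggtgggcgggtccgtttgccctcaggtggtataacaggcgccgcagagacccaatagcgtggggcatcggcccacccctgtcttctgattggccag
Taldo1, chr7:141391910-141392159, plus strand: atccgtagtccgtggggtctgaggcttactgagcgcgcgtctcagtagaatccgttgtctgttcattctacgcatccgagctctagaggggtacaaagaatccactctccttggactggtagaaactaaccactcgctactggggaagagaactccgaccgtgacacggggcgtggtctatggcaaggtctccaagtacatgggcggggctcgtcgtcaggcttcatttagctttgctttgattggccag
Rpe, chr1:66700581-66700830, plus strand: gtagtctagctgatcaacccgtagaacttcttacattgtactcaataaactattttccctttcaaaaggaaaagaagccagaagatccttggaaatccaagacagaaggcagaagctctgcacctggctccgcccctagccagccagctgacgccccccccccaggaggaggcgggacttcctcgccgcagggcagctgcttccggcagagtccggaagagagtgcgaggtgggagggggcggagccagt
Pgd had a further start whose window was searched too. The only match in the windows of the 8 genes was in G6pdx, on the strand opposite to the gene, and 10.2% of 32851 promoter windows of the same length held at least 1. The core glucocorticoid response element GNACANNNTGTNC, present in 0.387% of all windows, the hypoxia response core ACGTG, in 16.6%, and the NF-kB-like pattern GGGNNTTNCC, in 4.11%, were searched on both strands and had no match in the windows of the 8 genes. Positions 1 to 50 after the start were not searched.

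FPKM is scaled by a gene length, and the levels of the 8 genes are set side by side on the lengths that the authors used. Rebuilt from the FPKM steps, these were shorter than the annotated exon lengths by unlike amounts. They were 1604 against 6447 bp for Pgd, 1567 against 7355 for Tkt and 2832 against 2985 for Shpk. The order, the sum and the shares below depend on these lengths. Taldo1 had the highest mean over the 35 libraries, at 525 FPKM, ahead of Pgd (387), G6pdx (259), Tkt (193), Pgls (52.1), Rpe (21.5), Rpia (13.3) and Shpk (2.27). In WT vehicle, Taldo1 stood at percentile 98.75 of the 11354 tested genes and Shpk at percentile 11.34. The order was not the same in every condition. Taldo1 exceeded Pgd in 30 of 35 libraries, and the 5 exceptions were all 5 LPS libraries. G6pdx and Tkt overlapped in 7 of the 12 groups. Rpe exceeded Rpia in 25 of 35 libraries. Their ranges overlapped in 6 of the 12 groups, none of them with LPS, and with Dex in the libraries labelled AMPKa1-/- all 3 had Rpe below Rpia. No overlap was seen in any group between Tkt and Pgls, Pgls and Rpe, or Rpia and Shpk. The 8 genes summed to 1797 ± 169 FPKM (SD, n = 3) in WT vehicle and to between 787 and 883 FPKM in the 2 WT LPS libraries, and the share of the sum taken by Taldo1 was 39.1 to 43.0% in the former and 22.4 to 24.0% in the latter. The ratio of the highest to the lowest group mean was widest for Taldo1 and Shpk (4.32 each) and Rpe (3.63), and narrowest for Rpia (1.33).

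**Figure D1:**
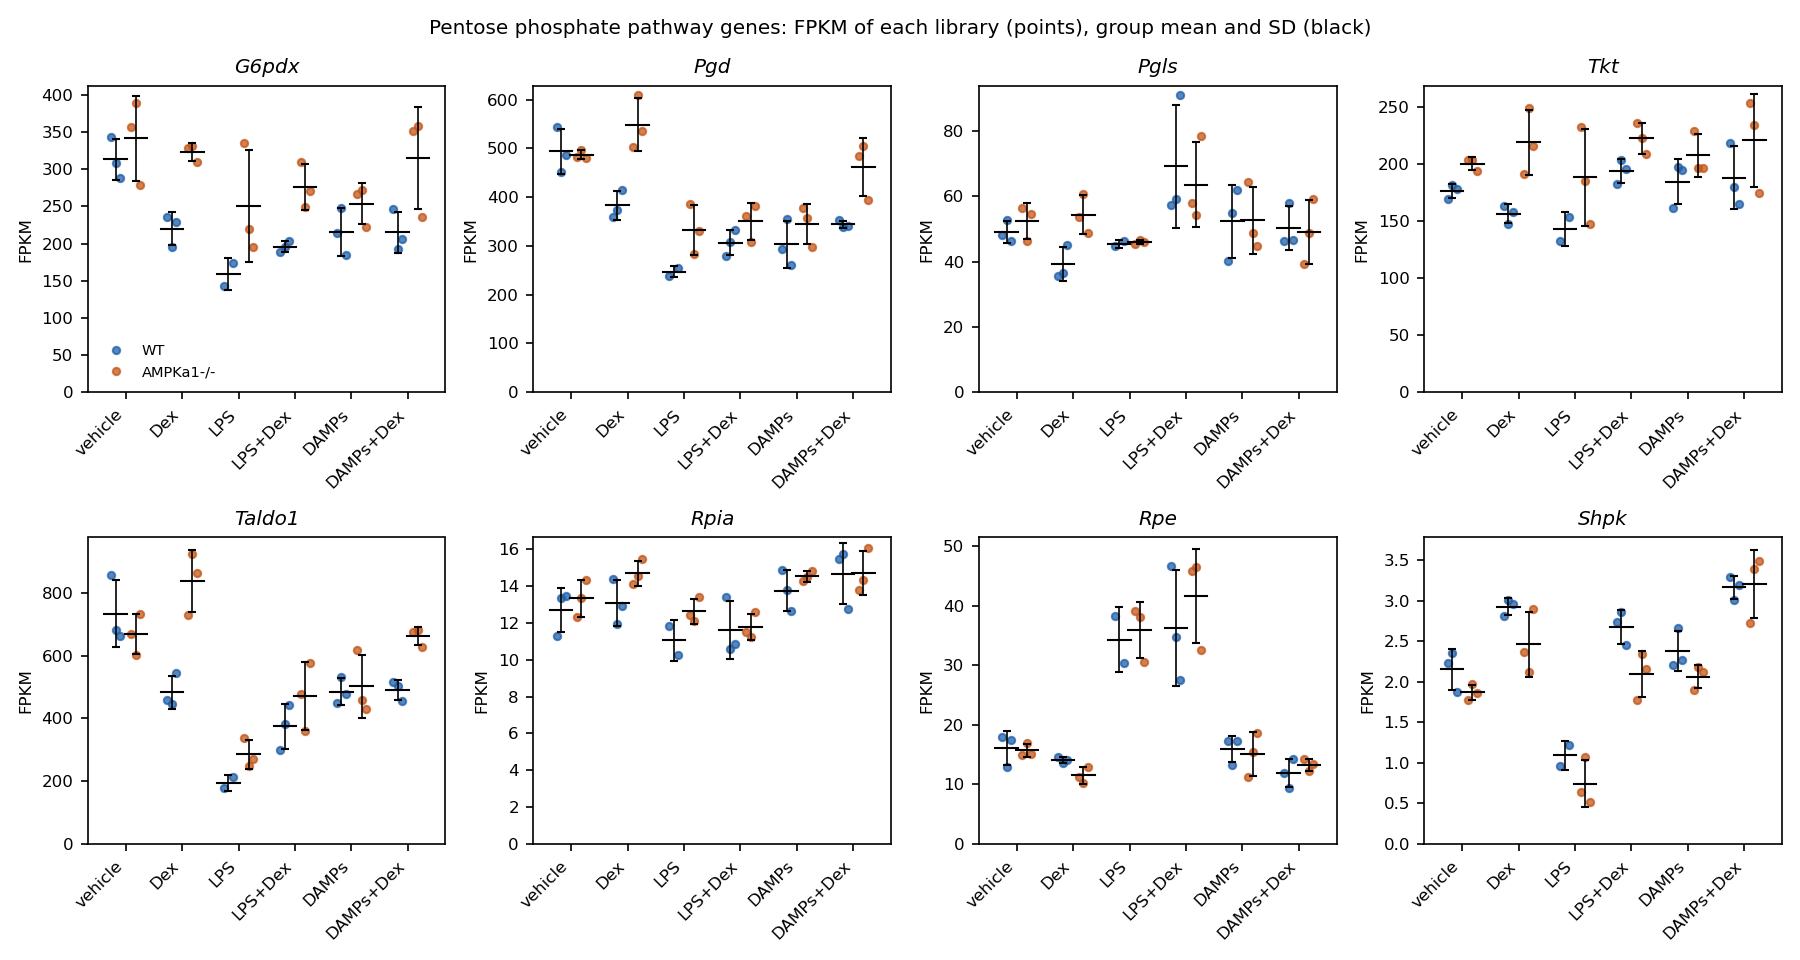
FPKM (y axes, linear, starting at 0) of the 8 pentose phosphate pathway genes in 6 treatments (x axes) of WT (blue) and AMPKa1-/- (orange) macrophages; points are libraries, and black bars are group means with SD (n = 3; n = 2 for WT LPS). Taldo1 and Shpk are lowest with LPS, Rpe is highest with LPS and LPS+Dex, and Rpia stays between 10.3 and 16.1 FPKM in all 35 libraries.

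The depth rebuilt from the FPKM steps was 15837203 to 31955298 fragments per library, which placed 3542 to 18517 fragments on Taldo1, 290 to 2548 on Rpe, 403 to 883 on Rpia and 29 to 289 on Shpk. Prkaa1, the gene of AMPK alpha 1, ranged from 9.05 to 24.0 FPKM in the 18 libraries labelled AMPKa1-/- and from 8.59 to 26.1 in the 17 WT libraries and was not called between genotypes in any treatment (adjusted p 0.350 to 1.000, limma). The labels do not say which exons were removed, so the gene-level value does not check the genotype. Of the 7 macrophage markers all had a mean of at least 1 FPKM, with a summed level of 12948 to 39154 FPKM. Summed levels of B cell (4 genes, 0.296 to 3.19 FPKM), T cell (3, 0 to 0.259), dendritic cell (4, 0.158 to 1.69) and mast cell and basophil markers (3, 0 to 1.53, with Fcer1a at 0 in every library) were low. The 5 fibroblast markers summed to 1.43 to 24.7 FPKM. The 8 neutrophil markers summed to 126 to 161 FPKM in the WT LPS and 511 to 1200 in the WT LPS+Dex libraries against 1.85 to 32.3 in WT vehicle, and to 129 to 143 and 329 to 620 against 8.43 to 41.2 in the libraries labelled AMPKa1-/-. Of these 8, Ly6g, Mpo and Elane stayed at or below 0.475 FPKM in every library. Ngp, Ltf and S100a9 reached 4.72, 3.83 and 11.1 FPKM in WT vehicle. In the libraries labelled AMPKa1-/- they reached 7.56 (Dex), 6.20 (vehicle) and 16.4 FPKM (Dex). The levels with LPS were mostly those of Camp (113 to 133 FPKM in WT and 92.5 to 117 in the other genotype). With LPS+Dex they were mostly those of S100a8 (478 to 1147 and 301 to 581 FPKM).

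LPS against vehicle was compared first, since the wiring of this pathway is one of the metabolic features of inflammatory macrophages. Transcripts of both oxidative dehydrogenases, of transaldolase and of sedoheptulose kinase fell, and that of the epimerase Rpe rose, in both genotypes. Taldo1 had the largest fall of the 8 on the log2(FPKM + 1) scale in either genotype. It was at 857, 682 and 662 FPKM in the WT vehicle and 176 and 212 in the WT LPS libraries, and at 669, 604 and 732 against 338, 248 and 270.0 in those labelled AMPKa1-/-. The groups did not overlap in either genotype, and vehicle means were 3.78-fold and 2.34-fold the LPS means. On the log2(FPKM + 1) scale, Taldo1 fell by 1.91 ± 0.18 (SE; limma, adjusted p = 8.09e-10) in WT and by 1.23 ± 0.16 (adjusted p = 2.23e-07) in the other genotype.

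Rpe moved the other way. It was at 17.9, 12.9 and 17.5 FPKM with vehicle and 38.3 and 30.4 with LPS in WT, and at 15.0, 17.0 and 15.2 against 39.1, 38.1 and 30.5 in the libraries labelled AMPKa1-/-. Every LPS library lay above every vehicle library, and the means were 2.13-fold and 2.29-fold those of vehicle (log2 difference 1.05 ± 0.21, adjusted p = 8.61e-05, and 1.14 ± 0.18, adjusted p = 5.26e-06, limma). Rpia, which acts on the same substrate, had values of -0.18 (95% interval -0.42 to 0.05) and -0.07 (-0.28 to 0.14) and did not pass the test in either genotype.

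The oxidative branch was uneven. G6pdx was at 343, 308 and 288 FPKM with vehicle and 143 and 174 with LPS in WT, where it fell by 0.98 ± 0.19 (adjusted p = 7.72e-05, limma), a vehicle mean 1.97-fold that of LPS. In the libraries labelled AMPKa1-/- it was at 357, 389 and 279 against 336, 220.1 and 195, and the first LPS library lay within the vehicle range. There it fell by 0.47 ± 0.17 (adjusted p = 0.0171), a call that ended without vehicle replicate 1 (-0.43, adjusted p = 0.0553) or 2 (-0.37, 0.0919) and without LPS replicate 2 (-0.40, 0.0712) or 3 (-0.32, 0.136), and when only these groups were fitted (0.0898). Pgd, with 543, 451 and 487 against 239 and 255 FPKM in WT and 482, 497 and 480.2 against 385, 283 and 331 in the other genotype, fell by 0.99 ± 0.14 (adjusted p = 8.34e-07) and 0.56 ± 0.13 (adjusted p = 0.000358), without overlap in either. Pgls, the step between them, stayed at 48.2, 52.7 and 46.4 and 44.6 and 46.3 FPKM in WT and did not pass the test in either genotype (log2 differences -0.11 and -0.18).

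Shpk was the least abundant member and was read from few fragments, 58 and 82 in the WT LPS libraries and 29 to 51 in the LPS libraries labelled AMPKa1-/-. It was at 2.23, 2.35 and 1.87 FPKM with vehicle and 0.963 and 1.22 with LPS in WT, and at 1.78, 1.97 and 1.86 against 0.643, 1.07 and 0.515 in the other genotype. The groups did not overlap, and vehicle means were 1.97-fold and 2.52-fold the LPS means. The log2(FPKM + 1) scale compresses so low a gene, on which it fell by 0.59 ± 0.13 (adjusted p = 0.000406, limma) and 0.73 ± 0.12 (adjusted p = 5.22e-06); under quantile normalization neither call held (-0.24, adjusted p = 0.13, and -0.24, adjusted p = 0.0864), and over all alternatives the adjusted p ran from 0.000405 to 0.13 and from 8.97e-07 to 0.0864. Tkt, at 169, 182 and 178 against 133 and 154 FPKM in WT, gave -0.30 (adjusted p = 0.101) and -0.11 (adjusted p = 0.491), and in WT it passed under quantile normalization only (-0.39, adjusted p = 0.027).

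In all, 4 of 8 members were called lower and 1 higher with LPS in each genotype. Of all 11354 genes tested, 35.8% were called lower and 19.9% higher in WT, and 44.1% and 20.2% in the libraries labelled AMPKa1-/-, so that the counts over the members did not stand far from the background. The median log2 difference was -0.45 over the members and -0.19 over all genes in WT, and -0.33 and -0.30 in the other genotype. Relative to the median of all genes, the WT differences were -1.72 for Taldo1, -0.81 for Pgd, -0.79 for G6pdx, -0.41 for Shpk and 1.24 for Rpe. In the libraries labelled AMPKa1-/- the values relative to the median were -0.94, -0.26, -0.18, -0.43 and 1.44 in the same order, and with every library centred on 1 median the calls there for G6pdx (-0.20, adjusted p = 0.412) and Pgd (-0.28, adjusted p = 0.159) were lost. The values of Pgls, Tkt and Rpia in that genotype changed sign with libraries centred in this way. In bulk RNA, fewer cells of a type and less RNA per cell cannot be told apart. The part that the higher level of Camp or the fall of cell cycle genes (9 of 10 called lower, 1 higher, in both genotypes) had in these differences was not tested.

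**Figure D2:**
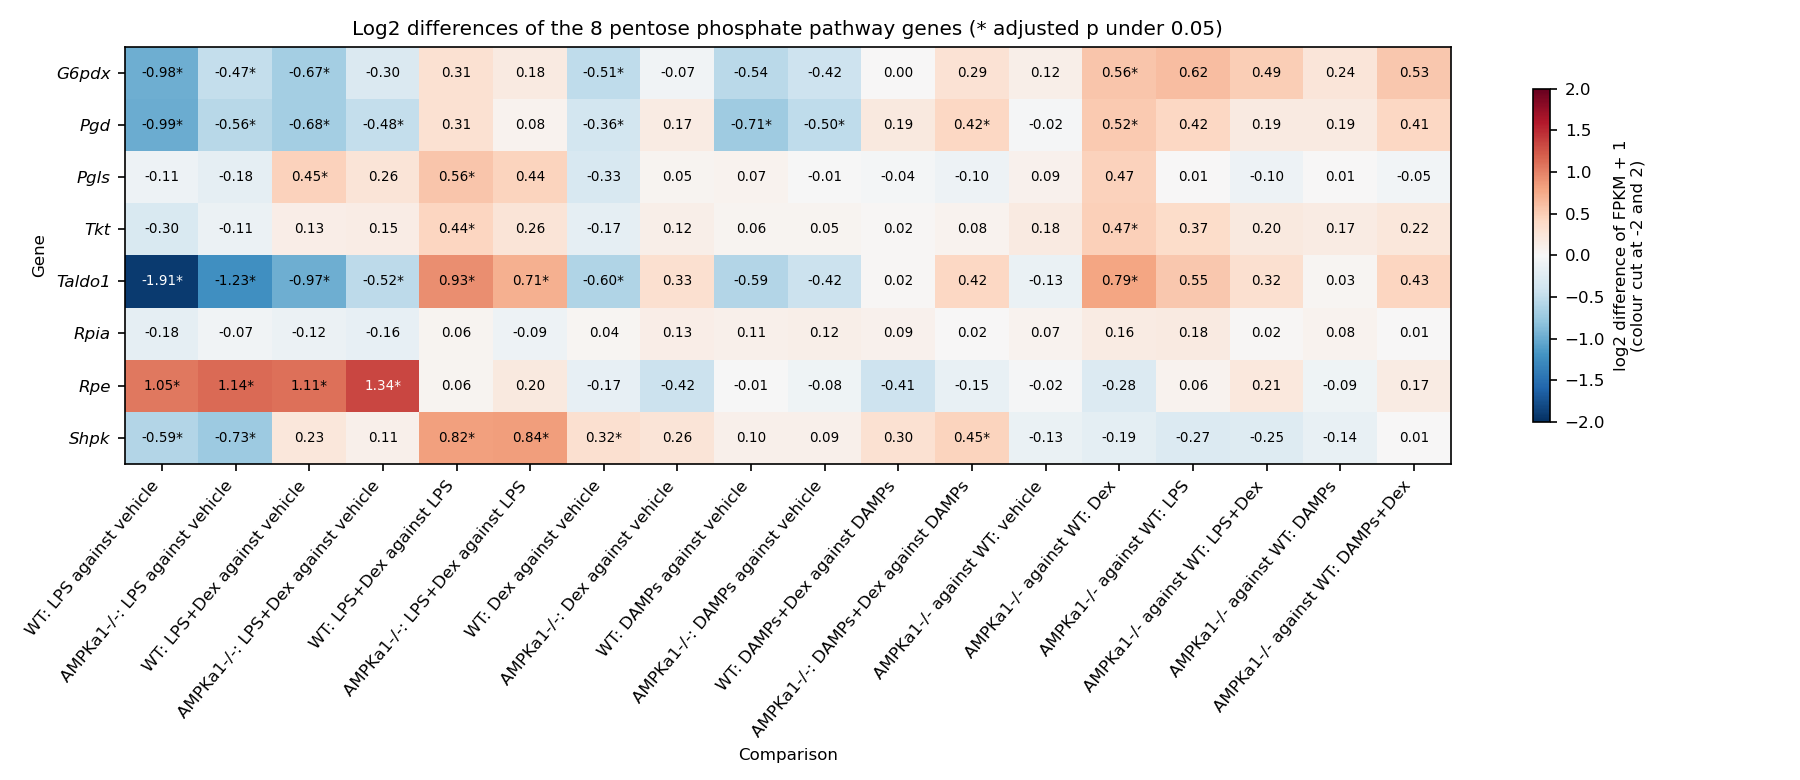
Log2 differences of FPKM + 1 (colour and printed value, first group minus second) of the 8 members (rows) in 18 comparisons (columns), with an asterisk where limma's adjusted p over 11354 genes was under 0.05. The Taldo1 row runs from -1.91 with LPS in WT to 0.93 when Dex was added to LPS, Rpe has an asterisk only in the 4 LPS or LPS+Dex against vehicle columns, and Rpia has none.

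Dex added to LPS was compared with LPS alone to see which of these transcripts the glucocorticoid moved. Every called member was higher with LPS+Dex. Shpk was at 2.73, 2.86 and 2.45 FPKM in WT and 1.78, 2.34 and 2.16 in the libraries labelled AMPKa1-/-, above every LPS library of its genotype, with means 2.46-fold and 2.83-fold those of LPS (log2 difference 0.82 ± 0.13, adjusted p = 1.54e-05, and 0.84 ± 0.12, adjusted p = 1.58e-06, limma). Taldo1 was at 300.3, 382 and 442 and 478, 361 and 575 FPKM, also without overlap with LPS, and rose by 0.93 ± 0.18 (adjusted p = 0.000185) and 0.71 ± 0.16 (adjusted p = 0.00095).

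The lactonase Pgls and transketolase passed the test in WT. Pgls was at 57.4, 59.1 and 90.9 FPKM with LPS+Dex, with replicate 3 far above the other two, against 44.6 and 46.3 with LPS, and rose by 0.56 ± 0.20 (adjusted p = 0.0293, limma). The call ended without LPS+Dex replicate 3 (0.35, adjusted p = 0.188) and without LPS replicate 2 (0.53, 0.145) or 3 (0.59, 0.0959). Leaving out 1 of the 2 WT LPS libraries leaves a group of 1, whose spread the fit takes from the remaining groups, and the Pgls difference moved by little. The Pgls call also ended with libraries centred on 1 median (0.64, 0.0565), without a filter on low genes (0.0553) and when only these groups were fitted (0.147). Tkt was at 182, 203 and 196 FPKM and rose by 0.44 ± 0.16 (adjusted p = 0.0301), a call that ended without LPS replicate 2 (0.33, adjusted p = 0.264) and without LPS+Dex replicate 2 (0.40, 0.0855) or 3 (0.43, 0.0582), without a filter (0.0516) and when only these groups were fitted (0.087). In the libraries labelled AMPKa1-/- Pgls was at 57.9, 54.3 and 78.5 against 45.3, 46.5 and 46.0 FPKM, without overlap, with a difference of 0.44 ± 0.18 (adjusted p = 0.0517); with the replicate number as a block, which pairs these libraries, the adjusted p was 0.0413, and over all alternatives it ran from 0.0348 to 0.275. Without LPS+Dex replicate 2 the Pgls difference passed as well (0.54, adjusted p = 0.0348). Tkt gave 0.26 (adjusted p = 0.147) there and passed without LPS replicate 1 (0.42, adjusted p = 0.021) and under quantile normalization (0.44, 0.0091); replicate 1, at 232 FPKM, stood above the 186 and 148 FPKM of the other LPS libraries.

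G6pdx (0.31, 95% interval -0.08 to 0.70, and 0.18, -0.17 to 0.53), Pgd (0.31 and 0.08), Rpia (0.06 and -0.09) and Rpe (0.06 and 0.20) did not pass the test in either genotype, other than Pgd in WT under quantile normalization (0.41, adjusted p = 0.0126). The 4 of 8 members called higher in WT stood beside 16.6% of all genes called higher and 17.5% called lower, with a median log2 difference of 0.37 over the members and -0.03 over all genes. Of the 8 members 2 were called higher in the libraries labelled AMPKa1-/- beside 19.3% of all genes higher and 18.4% lower, and the medians were 0.23 and 0.01.

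Against vehicle, LPS+Dex left a mixed picture. In WT, G6pdx (log2 difference -0.67, adjusted p = 0.00151, limma), Pgd (-0.68, 4.29e-05) and Taldo1 (-0.97, 1.27e-05) were lower and Rpe (1.11, 1.11e-05) and Pgls (0.45, 0.0328) higher than with vehicle, or 3 members lower and 2 higher beside 37.0% and 17.2% of all genes. Relative to the median of all genes (-0.23), these values were -0.44, -0.45, -0.75, 1.34 and 0.68. The Pgls call ended without LPS+Dex replicate 3 (0.24, adjusted p = 0.284) and without vehicle replicate 1 (0.44, 0.0744) or 3 (0.41, 0.093), without a filter on low genes (0.0693) and when only these groups were fitted (0.0871). With libraries centred on 1 median the G6pdx call ended (-0.45, adjusted p = 0.0629) and Shpk passed (0.45, 0.0022). In the libraries labelled AMPKa1-/- Pgd (-0.48, 0.0019) and Taldo1 (-0.52, 0.00787) were lower and Rpe (1.34, 5.77e-07) higher, 2 members and 1 beside 40.8% and 16.7% of all genes.

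Relative to the median of all genes there (-0.28), the values were -0.20 for Pgd, -0.25 for Taldo1 and 1.61 for Rpe, and with libraries centred on 1 median only Rpe of these 3 kept its call (Pgd -0.19, adjusted p = 0.363; Taldo1 -0.24, adjusted p = 0.387), while Pgls (0.55, adjusted p = 0.0481), Tkt (0.44, 0.0411) and Shpk (0.39, 0.0063) then passed. The Taldo1 call in this genotype also ended without LPS+Dex replicate 2 (-0.34, adjusted p = 0.0865), and G6pdx passed only without vehicle replicate 3 (-0.44, adjusted p = 0.049). Shpk, lowest with LPS alone, gave 0.23 (95% interval -0.02 to 0.47) and 0.11 (-0.14 to 0.35) against vehicle. These comparisons share their vehicle or LPS libraries with those above, so that they are not independent of them.

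Dex alone was compared with vehicle in each genotype. In WT the members that fell were those that fell with LPS, other than Shpk. G6pdx was at 236, 195 and 229 FPKM with Dex, below all 3 vehicle libraries, and fell by 0.51 ± 0.17 (adjusted p = 0.0244, limma). Pgd was at 359.5, 374 and 415 FPKM and fell by 0.36 ± 0.13 (adjusted p = 0.0287), and Taldo1 was at 458, 447 and 543 FPKM and fell by 0.60 ± 0.16 (adjusted p = 0.00659), both without overlap with vehicle. Shpk was at 2.81, 3.01 and 2.95 FPKM and rose by 0.32 ± 0.12 (adjusted p = 0.0418).

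Of these 4, Taldo1 kept its call without any one library and under every other alternative (adjusted p 0.00619 to 0.0482). The Shpk call ended without any one of the 6 libraries (0.25 to 0.37, adjusted p from 0.0511 without vehicle replicate 2 to 0.154 without vehicle replicate 3). It also ended with a pseudocount of 0.1 (0.43, adjusted p = 0.0792, limma), without a filter on low genes (0.0694) and with libraries centred on 1 median (0.23, 0.135). Quantile normalization (0.30, 0.0558) and fits of only these groups (0.116) or of WT alone (0.0573) ended it too. The G6pdx call ended without vehicle replicate 1 (-0.44, adjusted p = 0.0895) or 2 (-0.52, 0.0574) and without Dex replicate 2 (-0.42, 0.116), and under quantile normalization (-0.37, 0.087). The Pgd call ended without vehicle replicate 1 (-0.29, adjusted p = 0.122) or 3 (-0.37, 0.0559) and without Dex replicate 1 (-0.32, 0.1) or 2 (-0.35, 0.0846), without a filter on low genes (0.0504) and under quantile normalization (-0.14, 0.358). The 3 members lower and 1 higher stood beside 14.9% and 15.9% of all genes, and the median was -0.25 over the members and 0.05 over all genes.

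Among the libraries labelled AMPKa1-/- 0 of 8 members passed the test for Dex against vehicle by limma, beside 11.9% of all genes called higher and 16.0% lower. Beside 4323 of all 11354 genes at an unadjusted p under 0.05, there were 2 members. These were Rpe, at 11.2, 10.2 and 13.0 FPKM against 15.0, 17.0 and 15.2 (-0.42, adjusted p = 0.0895), and Shpk, at 2.37, 2.12 and 2.89 against 1.78, 1.97 and 1.86 (0.26, adjusted p = 0.0992), neither overlapping with vehicle. Shpk passed with libraries centred on 1 median (0.35, adjusted p = 0.0251) or quantile normalized (0.44, 0.0069), and Rpe when only these groups were fitted (0.0332). Taldo1 was at 730.0, 924 and 863 FPKM with Dex, with a difference of 0.33 (95% interval -0.01 to 0.66), G6pdx was at 328, 331 and 309.7 FPKM (-0.07, -0.42 to 0.28) and Pgd at 502, 609 and 535 FPKM (0.17, -0.09 to 0.43).

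**Figure D3:**
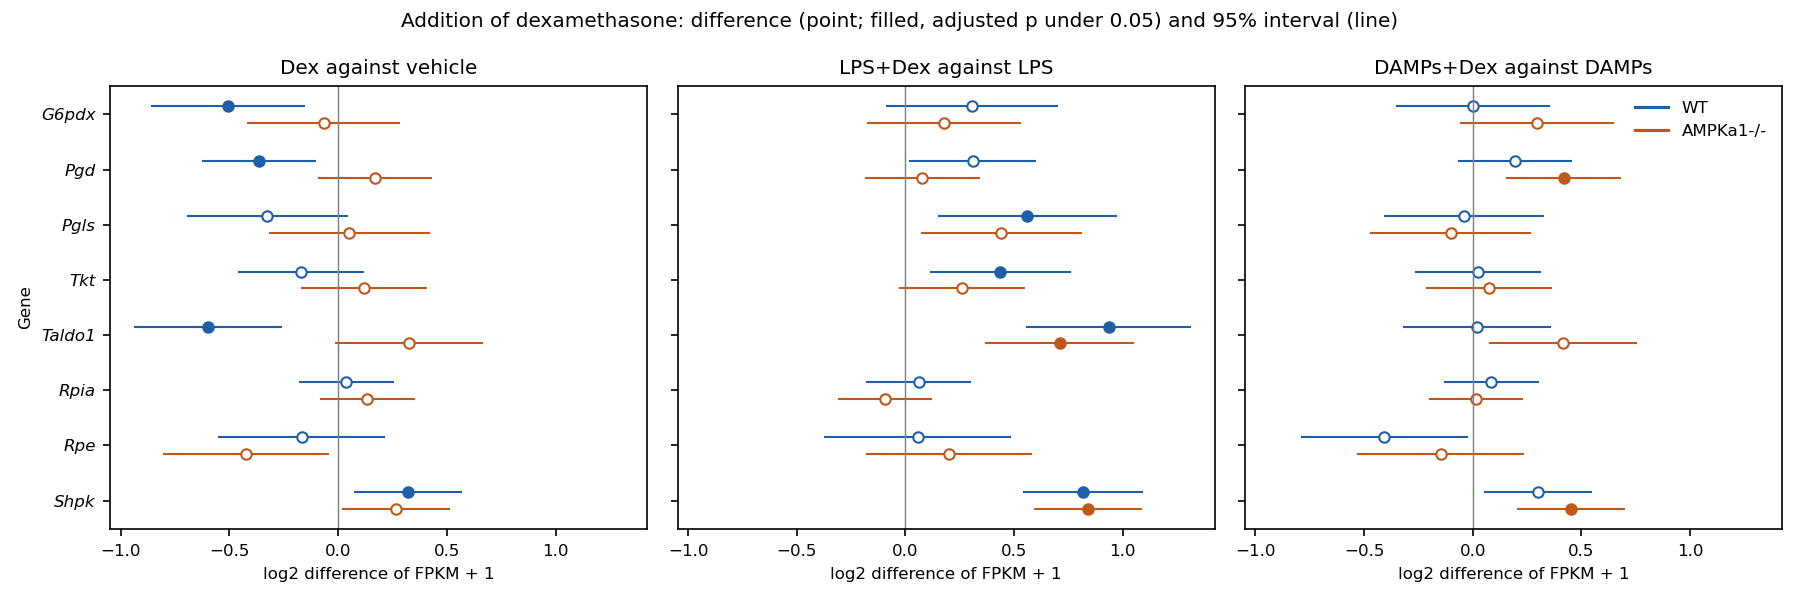
Log2 difference of FPKM + 1 when Dex was added to vehicle, to LPS or to DAMPs (x axes, 1 panel each) for the 8 members (y axis) in WT (blue) and AMPKa1-/- (orange); points are limma estimates, filled where the adjusted p was under 0.05, and lines are 95% intervals. In the left panel the Taldo1 intervals of the genotypes do not touch (-0.94 to -0.26 and -0.01 to 0.66), and in the middle panel no estimate is below 0 except that of Rpia in AMPKa1-/- (-0.09).

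The genotypes were compared within each treatment. With Dex, 4 of 8 members were higher in the libraries labelled AMPKa1-/- than in WT and 0 were lower, beside 11.0% of all genes called higher and 15.5% called lower. They were Taldo1 (log2 difference 0.79 ± 0.16, 1.74-fold, adjusted p = 0.0032, limma), G6pdx (0.56 ± 0.17, 1.47-fold, 0.0223), Pgd (0.52 ± 0.13, 1.43-fold, 0.00877) and Tkt (0.47 ± 0.14, 1.40-fold, 0.0186), the last at 192, 249 and 216 against 164, 148 and 158 FPKM. Values did not overlap between the genotypes for 6 of 8 members, which were these 4, Pgls and Rpe, the last being lower. How many of all genes did not overlap was not counted. Pgls, at 53.7, 60.6 and 48.7 against 35.7, 36.6 and 45.1 FPKM, lay just outside the threshold (0.47, adjusted p = 0.0522) and passed it without replicate 3 of either Dex group (0.54, adjusted p = 0.0461, without that labelled AMPKa1-/- and 0.57, 0.0371, without that of WT). It passed as well with a minimum of 5 FPKM (adjusted p = 0.0495, limma), with libraries centred on 1 median (0.63, 0.0434) and under quantile normalization (0.54, 0.0352). The same held when only these groups were fitted (0.0337). Over all alternatives the adjusted p for Pgls ran from 0.0337 to 0.221. The median was 0.47 over the members and -0.09 over all genes.

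Only Taldo1 kept this call without any one library, and it did so under the other alternatives as well (adjusted p 0.00312 to 0.0341). Without Dex replicate 2 of the libraries labelled AMPKa1-/-, the calls for G6pdx (0.54, adjusted p = 0.106), Pgd (0.44, 0.0771) and Tkt (0.38, 0.135) ended, and without Dex replicate 2 of WT so did those for G6pdx (0.47, 0.125), Pgd (0.50, 0.0542) and Tkt (0.43, 0.101). The Pgd call also ended under quantile normalization (0.29, adjusted p = 0.0572). Rpia (0.16), which passed with libraries centred on 1 median (0.32, 0.0393) or quantile normalized (0.32, 0.0402), Rpe (-0.28) and Shpk (-0.19) did not pass. Of the same comparison, 2 of the 6 Dex response genes were lower in the libraries labelled AMPKa1-/-, Zbtb16 (-1.75, adjusted p = 0.00171) and Klf9 (-1.69, 0.0027), and 4 did not pass. The summed fibroblast markers were 3.13 to 4.64 FPKM in these Dex libraries and 12.1 to 24.7 in those of WT, with no overlap. The summed macrophage markers were 29461 to 36345 against 19248 to 22758 and the summed neutrophil markers 23.0 to 47.8 against 2.24 to 6.95, also without overlap. The macrophage sum was mostly Lyz2 (27101 to 33976 against 16768 to 20418 FPKM), and Csf1r was higher too (601 to 662 against 488 to 576). Adgre1 (474 to 623 against 669 to 861) and Mertk (109 to 157 against 178 to 221) were lower without overlap. Cd68, Itgam and Fcgr1 overlapped between the genotypes. Of the neutrophil list S100a9 was at 8.94 to 16.4 against 0.418 to 1.85 FPKM and Ngp at 3.35 to 7.56 against 0.462 to 0.530. S100a8 (8.13 to 19.1 against 1.10 to 4.19), Ltf (1.38 to 2.74 against 0.0792 to 0.645) and Camp (0.931 to 1.86 against 0 to 0.331) were higher without overlap as well. Ly6g, Mpo and Elane stayed at or below 0.218 FPKM in these libraries, with Mpo at 0.145 to 0.218 against 0 in WT. The part of these markers in the difference was not tested.

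In the other 5 treatments 0 of 8 members passed the test by limma. The share of all genes called between genotypes was 0.432% with vehicle, 0.766% with LPS, 0.669% with LPS+Dex, 0.731% with DAMPs and 1.06% with DAMPs+Dex. At an unadjusted p under 0.05 there were 0 members with vehicle, 5 with LPS (4 of them higher in the libraries labelled AMPKa1-/-), 2 with LPS+Dex (1 higher), 0 with DAMPs and 3 with DAMPs+Dex (all higher). In the same order, 700, 1300, 921, 860 and 1067 of all 11354 genes had an unadjusted p under 0.05. With LPS, G6pdx gave 0.62 (95% interval 0.23 to 1.01), Taldo1 0.55 (0.17 to 0.92) and Pgd 0.42 (0.13 to 0.71). G6pdx passed with LPS only without the LPS replicate 3 labelled AMPKa1-/- (0.78, adjusted p = 0.0487) and with DAMPs+Dex only without the DAMPs+Dex replicate 3 of that label (0.73, 0.0428).

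The difference of a treatment effect between genotypes was tested directly by an interaction term. No gene of the 11354 passed for any of the 5 effects (0.0% each for LPS, Dex, LPS+Dex over LPS, DAMPs and DAMPs+Dex over DAMPs, limma), and so neither did any member. At an unadjusted p under 0.05 the counts over all genes were 514 for LPS, 2441 for Dex, 311 for LPS+Dex over LPS, 66 for DAMPs and 234 for DAMPs+Dex over DAMPs. For Dex against vehicle the interaction was 0.92 ± 0.23 for Taldo1 (95% interval 0.45 to 1.40, adjusted p = 0.147, from 0.0827 to 0.481 over the alternatives), 0.53 ± 0.18 for Pgd (0.17 to 0.90, 0.194) and 0.44 ± 0.24 for G6pdx (-0.05 to 0.93, 0.264). For LPS against vehicle it was 0.68 ± 0.25 for Taldo1 (0.17 to 1.18, adjusted p = 0.947) and 0.51 ± 0.26 for G6pdx (-0.02 to 1.03, 0.947). The Dex and LPS effects on the members were therefore not shown to differ between genotypes.

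DAMPs against vehicle moved few genes of any kind, and 1 member in each genotype. Pgd was at 295, 355 and 261 FPKM with DAMPs and 543, 451 and 487 with vehicle in WT, and at 378, 358 and 298 against 482, 497 and 480.2 in the libraries labelled AMPKa1-/-. The groups did not overlap, and Pgd fell by 0.71 ± 0.13 (adjusted p = 0.00341, limma) and 0.50 ± 0.13 (adjusted p = 0.0166). This 1 of 8 lower stood beside 0.793% of all genes lower and 1.22% higher in WT, and 2.24% and 1.89% in the other genotype. Without DAMPs replicate 3 the call ended in WT (-0.60, adjusted p = 0.0559) and in the libraries labelled AMPKa1-/- (-0.40, 0.142), and in the latter also without vehicle replicate 2 (-0.49, 0.0735) or 3 (-0.51, 0.0555). It ended in both genotypes when only the 2 groups compared were fitted (adjusted p = 0.207 and 0.0682), and in the latter with libraries centred on 1 median (-0.44, 0.21).

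G6pdx and Taldo1 leaned the same way without passing. G6pdx was at 214, 248 and 184 FPKM with DAMPs in WT (-0.54, adjusted p = 0.113) and 267, 272 and 222 in the other genotype (-0.42, 0.221). Taldo1 gave -0.59 (adjusted p = 0.0582), which passed without WT DAMPs replicate 2 (-0.66, 0.0472) or under quantile normalization (-0.61, 0.0195), and -0.42 (0.187). Rpe, which rose with LPS, was at 17.3, 13.3 and 17.2 and 11.1, 15.5 and 18.6 FPKM with DAMPs (-0.01, 95% interval -0.39 to 0.37, and -0.08, -0.46 to 0.30).

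When Dex was added to DAMPs, 0 of 8 members passed in WT by limma, beside 11.7% of all genes called higher and 12.6% lower. Beside 3876 of all 11354 genes at an unadjusted p under 0.05, there were 2 members (Shpk, 0.30, adjusted p = 0.0645, and Rpe, -0.41, 0.114). Among the libraries labelled AMPKa1-/- Shpk was at 2.72, 3.39 and 3.49 FPKM against 1.90, 2.17 and 2.11 with DAMPs and rose by 0.45 ± 0.12 (adjusted p = 0.00506), and Pgd was at 484, 505 and 393 FPKM and rose by 0.42 ± 0.13 (adjusted p = 0.0142). These 2 of 8 stood beside 13.1% of all genes higher and 12.2% lower. The Pgd call ended without DAMPs+Dex replicate 1 (0.38, adjusted p = 0.061) or 2 (0.35, 0.0758) and without DAMPs replicate 3 (0.32, 0.0951), with libraries centred on 1 median (0.36, 0.125) and when only these groups were fitted (0.0769), where that for Shpk ended too (0.0731). Taldo1 (0.42, adjusted p = 0.0635) passed without DAMPs replicate 1 (0.57, 0.0168) or under quantile normalization (0.49, 0.0114), and G6pdx (0.29, 0.222) only without DAMPs+Dex replicate 3 (0.49, 0.0472).

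Across the 3 additions of Dex, Shpk had a positive difference in all 6 comparisons, of 0.32 and 0.26 over vehicle, 0.82 and 0.84 over LPS and 0.30 and 0.45 over DAMPs (WT first), of which 4 passed the test. Of these 4, the call over vehicle in WT ended without any one library and under most other settings. The call over DAMPs in the libraries labelled AMPKa1-/- ended when only these groups were fitted. Taldo1 had the opposite sign over vehicle in WT (-0.60) from that over LPS (0.93). Rpia was between -0.09 and 0.13 in all 6 and passed in none.

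A wider list of 15 genes around the pathway held the paralogs, the side branches and the enzymes that use ribose 5-phosphate, and 11 of them were tested. G6pd2, Tktl1, Tktl2 and the gluconolactonase gene Rgn had a mean of at most 0.03 FPKM in every group. Tigar, whose product lowers fructose 2,6-bisphosphate and so favours entry into the pathway, rose with LPS in WT (1.16 ± 0.16, adjusted p = 5.67e-07, limma) and in the libraries labelled AMPKa1-/- (1.10 ± 0.14, 1.72e-07), from 3.62 to 9.29 and from 4.51 to 10.8 FPKM. It stayed at 9.06 and 9.92 FPKM with LPS+Dex. Idnk, the gluconate kinase that forms 6-phosphogluconate, rose from 20.2 to 43.5 FPKM in WT (1.07 ± 0.19, 1.96e-05) and from 20.5 to 53.2 in the other genotype (1.31 ± 0.17, 1.05e-07). Idnk fell when Dex was added to LPS (-0.84, adjusted p = 0.000801, and -1.09, 5.2e-06).

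Genes of ribose 5-phosphate use moved as well. Prps2, a phosphoribosyl pyrophosphate (PRPP) synthetase, fell with LPS by 0.86 (adjusted p = 0.000962) in WT and 0.88 (0.000201) in the libraries labelled AMPKa1-/-. Its associated proteins Prpsap1 (-0.95 and -1.04) and Prpsap2 (-1.18 and -1.23) fell too, while Prps1 did not pass. Dera, a deoxyribose-phosphate aldolase, rose with LPS (0.48, 0.0211, and 0.71, 0.000228) and fell when Dex was added (-0.45, 0.0457, and -0.77, 0.000202). The phosphomutase Pgm1 rose with LPS (1.68 and 1.34), and H6pd, the endoplasmic reticulum counterpart of G6pdx, fell in WT (-0.62, 0.00231) and did not pass in the other genotype. In total 4 of the 11 were called higher and 4 lower with LPS in WT, and 4 and 3 in the libraries labelled AMPKa1-/-, beside 19.9% and 35.8% of all genes in WT and 20.2% and 44.1% in the other genotype.

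With Dex over vehicle 2 of the 11 were called higher and 1 lower in WT and 3 and 1 in the libraries labelled AMPKa1-/-, near the 15.9% and 14.9% and the 11.9% and 16.0% of all genes. Prps1 rose with Dex over vehicle in WT (0.43, adjusted p = 0.014) and in the libraries labelled AMPKa1-/- (0.65, 0.000368) and over DAMPs (0.80, 2.58e-05, and 1.20, 4.31e-08). Prpsap1 rose over vehicle (0.41 and 0.53), and over LPS Prps2 (0.96 and 0.78), the ribokinase Rbks (0.60 and 0.54) and Pgm2 (0.45 and 0.50) rose in both genotypes. With LPS+Dex over LPS 5 of 11 were called higher and 2 lower in WT, beside 16.6% and 17.5% of all genes, and 4 and 2 in the other genotype, beside 19.3% and 18.4%. None of the 11 was called with DAMPs against vehicle in either genotype, or between genotypes in any treatment.

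**Figure D4:**
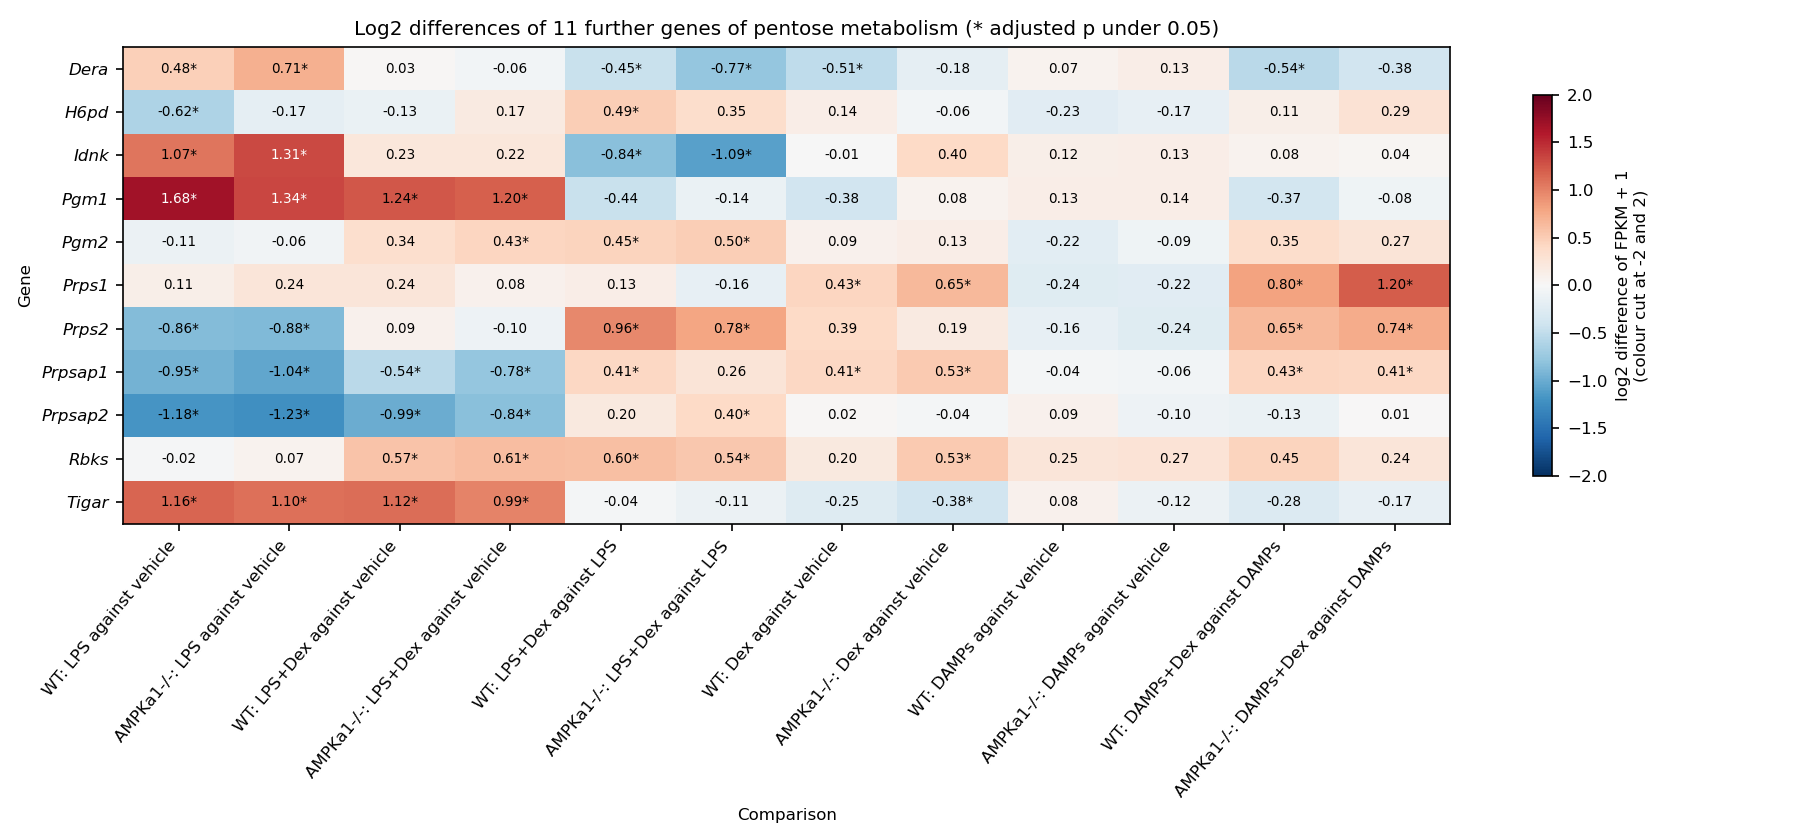
Log2 differences of FPKM + 1 (colour and printed value) of 11 tested genes around the pathway (rows) in 12 treatment comparisons (columns), with an asterisk where limma's adjusted p over 11354 genes was under 0.05. Tigar and Pgm1 are red in all 4 LPS or LPS+Dex against vehicle columns, Idnk and Dera turn from red with LPS to blue with LPS+Dex against LPS, and Prpsap1 and Prpsap2 are blue with LPS.

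Genes that feed the pathway or draw on its products gave further context. Their counts with LPS stand beside 19.9% of all genes called higher and 35.8% lower in WT. In the libraries labelled AMPKa1-/- these shares were 20.2% and 44.1%. Of 6 genes for the entry of glucose 6-phosphate, 4 were higher and 1 lower with LPS in each genotype, led by hexokinase Hk2 (2.18 and 2.16) and the glucose transporter Slc2a1 (1.90 and 1.68), so that these rose while G6pdx and Pgd fell. In the libraries labelled AMPKa1-/- the falls of G6pdx and Pgd were not called with libraries centred on 1 median (adjusted p = 0.412 and 0.159, limma). Of 7 tested genes for other NADPH sources, 3 were higher and 2 lower in WT and 2 and 2 in the libraries labelled AMPKa1-/-. Malic enzyme Me1 rose (1.45 and 1.40) and cytosolic isocitrate dehydrogenase Idh1 fell (-2.30 and -2.11). Of 12 users of NADPH, 6 were higher and 3 lower in WT and 6 and 2 in the other genotype, with inducible nitric oxide synthase Nos2 up by 6.09 and 5.39.

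The list of NRF2, its targets and other regulators (12 genes) had 4 higher and 8 lower in WT and 3 and 8 in the other genotype with LPS. Its median log2 differences were -1.06 and -0.92, beside -0.19 and -0.30 over all genes. Mean Nfe2l2, the gene of NRF2, went from 136 to 50.9 FPKM in WT and from 132 to 51.8 in the other genotype. The cystine transporter Slc7a11 (3.35 and 4.19) rose. Of 13 genes of purine and pyrimidine synthesis from PRPP, 1 was higher and 3 lower with LPS in WT and 3 and 4 in the other genotype, with Hprt (-1.16 and -1.21) and Adss (-0.80 and -1.03) lower in both. The counts of both lists stood beside 19.9% of all genes higher and 35.8% lower in WT, and 20.2% and 44.1% in the other genotype. All 7 LPS response genes were higher with LPS and all 7 lower when Dex was added to LPS, and all 6 Dex response genes were higher with each addition of Dex, in both genotypes. Of all genes, 17.5% in WT and 18.4% in the other genotype were called lower when Dex was added to LPS. With Dex, the shares called higher were 16.6% and 19.3% over LPS, 15.9% and 11.9% over vehicle and 11.7% and 13.1% over DAMPs (WT first).

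Genotype differences of these lists were called with Dex, LPS, LPS+Dex and DAMPs+Dex. Of all genes, 11.0% were called higher and 15.5% lower with Dex in the libraries labelled AMPKa1-/- than in WT. With Dex, higher in the libraries labelled AMPKa1-/- were the NRF2 targets Nqo1 (1.04, adjusted p = 0.00895, limma), Gclm (0.94, 0.0161) and Hmox1 (0.73, 0.0238), which were the 3 of 12 genes of the list called higher, and 1 was lower. Me1 (0.90, 0.00778) was the 1 of 7 other NADPH sources to pass. Of the 12 users of NADPH 4 were higher, among them Blvrb (0.85, 0.00687), and 2 lower, Cybb (-0.996, 0.0205) and Fasn (-0.86, 0.0456), which encode biliverdin reductase B, the catalytic subunit of the phagocyte oxidase and fatty acid synthase. Hk2 was lower (-0.62, 0.0338) and the glycolytic isomerase gene Gpi1 (0.62, 0.016) and Slc2a1 (0.43, 0.0376) higher, of 6 genes for the entry of glucose 6-phosphate. In other treatments Nqo1 was higher in the libraries labelled AMPKa1-/- with LPS (1.46, adjusted p = 0.0112), LPS+Dex (1.43, 0.00313) and DAMPs+Dex (1.29, 0.00632), Gclm with DAMPs+Dex (1.31, 0.00886), and Me1 with LPS+Dex (1.00, 0.0174) and DAMPs+Dex (1.10, 0.00572), while Ncf1, a subunit of the phagocyte oxidase, was lower with LPS+Dex (-0.37, 0.025).

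The likeness of patterns was described by Pearson's r of mean log2(FPKM + 1) over the 12 groups, which share treatments and depth and are given with no test. Among the members, r was 0.92 between G6pdx and Pgd, 0.90 between Pgd and Taldo1 and 0.84 between G6pdx and Taldo1. Pgls had an r of 0.12 with G6pdx and -0.03 with Pgd. Rpe ran against Rpia (-0.87) and Taldo1 (-0.73). Of all tested genes, those closest to G6pdx were Dtd2 (0.92), Pgd (0.92) and Nqo1 (0.91), those closest to Pgd were G6pdx (0.92), Taldo1 (0.90) and Slc1a5 (0.89), and those closest to Taldo1 were Cat (0.97), Osgin1 (0.96) and Hnrnpf (0.96). Pgls was closest to Lamtor2 (0.98), Ndufb7 (0.97) and Ndufa13 (0.96), and Tkt to Mmgt2 (0.94), Cdipt (0.90) and Nucb1 (0.90). Rpia was closest to Itgb7 (0.95), Ino80b (0.94) and Rabggta (0.94), Rpe to Msn (0.99), Amd1 (0.99) and Dram1 (0.99), and Shpk to Thra (0.99), C8g (0.98) and Gtf2i (0.98).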

How the data were processed

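RNA-seq of 35 libraries was analysed as deposited, with 1 table of FPKM per library. Per the labels, RNA was extracted with TRIzol and libraries were made by Novogene. The submitters' processing notes name Bowtie2 2.2.3, TopHat2 2.0.12, HTSeq 0.6.1 and DESeq2 and the builds GRCm38 and mm10, with no role or order. The FPKM values were computed by the authors, and the tables hold no fragment counts. Fragments per library and for the 8 genes were rebuilt from the FPKM steps and served only to describe depth; at the rebuilt depth, 55.4 to 63.8% of the genes with fewer than 10 fragments had a whole number to within 0.001. Symbols were taken from GENCODE M21 and matched 46574 of 47069 identifiers.

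Values were tested as log2(FPKM + 1), on genes with a mean of at least 1 FPKM, with limma 3.58.1 (R 4.3.3) in 1 model of all 12 groups, with 23 residual and 4.06 prior degrees of freedom and Benjamini-Hochberg adjustment over 11354 genes. The threshold was an adjusted p of 0.05, and fold changes on this scale understate changes of low genes. The procedure was tested on simulated data in which few genes changed, none of them as low as Shpk, and the median of all genes did not shift. In these respects the simulated data differed from the data analysed here. The members and lists were chosen with earlier results of these data known. Named were all 8 members, every tested gene of the wider list, up to 3 called genes of each other list per comparison, the targeted gene and the 3 genes closest to each member. Nfe2l2 was named as the gene of NRF2. Alternatives were a pseudocount of 0.1, no filter or a minimum of 5 FPKM, median centring, quantile normalization, fits of the compared groups or of 1 genotype alone, a replicate block and each library left out. Same-numbered libraries deviated together (3 pairs, every r over 0.1) in 5 of 18 comparisons. In the libraries labelled AMPKa1-/- these were LPS, Dex and LPS+Dex against vehicle and LPS+Dex against LPS (r from 0.12 to 0.40). The genotype comparison with LPS+Dex was the other. Only 2 pairs exist for LPS+Dex against LPS in WT (r 0.113 and 0.429) and for the genotypes with LPS (0.112 and 0.134). Both pairs passed 0.1 there, but these comparisons were not counted. The pairing rests on the data and not on the labels. WT LPS replicate 1 was not analysed here. Promoter windows came from RefSeq (GRCm38.p6), and no intervals for counting error were computed from FPKM.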

Additional observations from a re-analysis of the deposited data

How the results depend on the processing

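The number of members called depended on the settings, and calls well past the threshold were lost too, among them Shpk with LPS in both genotypes, Pgd with LPS or LPS+Dex against vehicle in the libraries labelled AMPKa1-/- and Pgd with DAMPs in WT. With Dex against vehicle in WT, 4 calls became 2 without a filter and 1 with quantile normalization, and ranged from 1 to 3 when each library was left out. With LPS+Dex against LPS in WT, 4 became 2 without a filter and when only these groups were fitted, and 2 to 4 with a library left out; in the libraries labelled AMPKa1-/-, 2 became 4 with quantile normalization. With DAMPs against vehicle in WT, 1 became 2 with quantile normalization, 0 with only these groups and 2 with the replicate block, and 0 to 2 with a library left out; in the other genotype 1 became 0 with centred libraries and with only these groups, and 0 to 1 with a library left out. With DAMPs+Dex against DAMPs in WT, 0 became 1 with centred libraries and 2 with quantile normalization; in the other genotype 2 became 1 with a minimum of 5 FPKM (Shpk was then not tested) and with centred libraries and 0 with only these groups, and 1 to 3 with a library left out. For the libraries labelled AMPKa1-/-, 5 calls with LPS became 3 with centred libraries, and 0 with Dex became 1 with centred libraries, quantile normalization or only these groups. Between genotypes, 4 calls with Dex ranged from 1 to 5, 0 with LPS from 0 to 1 and 0 with DAMPs+Dex from 0 to 1 when each library was left out. No called value changed sign under any setting. The replicate block, run for every comparison, added Pgls to LPS+Dex against LPS in the libraries labelled AMPKa1-/- (0.44, adjusted p = 0.0413), where the numbers pair the libraries, and G6pdx to DAMPs against vehicle in WT (-0.54, 0.0331) and Pgls to the genotypes with Dex (0.47, 0.0465), where they share only a number; it changed no other member call. The cause of these changes was not tested. Shpk was read from 29 to 289 fragments, and the part of depth in its values was not tested.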
